A study of Saccharomyces cerevisiae with 16 samples.

Results

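The genes described here are 9 genes of homologous recombination in budding yeast: RAD50, RAD52, RAD54, RAD55, RAD57, RAD59, RDH54, MUS81 and SGS1. They are a set given by name, proposed with earlier results of these data known, and all 9 were measured, each with 2 spots per array, among 4073 genes with a symbol. The data were 16 two-colour arrays of messenger RNA from strains of the W303 background, either wild type or carrying esa1-L254P, a point allele (marked with NatRMX4) of the gene for the catalytic subunit of the NuA4 histone acetyltransferase. G1 cells were held in alpha factor for 1 h and then left untreated or given 0.05% of the alkylating agent methyl methanesulfonate (MMS) for 1 h. S cells were held in alpha factor for 2 h, washed, and released for 1 h into medium with or without 0.05% MMS. Each of 8 comparisons had 2 arrays with the dyes exchanged: 4 set MMS against no treatment, 1 for each strain in each phase, and 4 set the mutant against wild type, 1 for each treatment in each phase. No array set G1 against S directly, and the 4 comparisons of a phase share their 4 RNA conditions.

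Homologous recombination repairs broken DNA and gaps behind stalled replication forks by copying an intact sister sequence. The ends are first held and trimmed, Rad52 and the Rad55-Rad57 pair then act on the exposed single strand, the motor protein Rad54 assists strand invasion, and helicases and nucleases take the joined molecules apart. In yeast the pathway is needed to survive MMS, whose lesions block replication forks, and it is held back in G1, where no sister copy exists.

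Values below are log2 ratios. They are given as the value on array 1 (test RNA in Cy5) and array 2 (test RNA in Cy3), or as the mean of both with its standard error (SE) from limma after the ± sign. Positive values mean higher with MMS or higher in esa1-L254P, which rests on reading the deposited ratio as Cy5 over Cy3. A gene was called where its p, adjusted by Benjamini-Hochberg over all 4073 genes, was under 0.05. Whether the 2 arrays of a comparison came from separate cultures was not given in the sources used here, so the p-values measure the spread between arrays, which may be technical. MAG1, a glycosylase gene known to respond to MMS, was higher in all 4 MMS comparisons (0.86 to 1.09). RNR3 and HUG1, also damage-inducible, rose in S (RNR3 1.22 and 0.99, HUG1 1.03 and 0.68, wild type first). In G1 they did not (RNR3 -0.23 and -0.0035, HUG1 0.03 and 0.06). ESA1 itself was higher in untreated G1 esa1-L254P cells (0.68, adjusted p = 0.000448), which does not check a point allele.

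In wild-type cells arrested in G1, most of the 9 genes rose with MMS. RAD59 rose by 0.85 ± 0.12, RAD50 by 0.71 ± 0.07, MUS81 by 0.69 ± 0.07, RDH54 by 0.66 ± 0.11, RAD54 by 0.62 ± 0.17, RAD52 by 0.53 ± 0.10 and SGS1 by 0.44 ± 0.07. RAD55 (0.14) and RAD57 (0.02) did not pass, and none fell. That is 7 of 9 higher, against 19.5% of all genes, with a median of 0.62. The same 7 genes lay above 0 on both arrays, against 41.9% of all genes. Leaving out either array of this comparison kept 6 of these calls and lost RAD54.

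In esa1-L254P cells in G1, RAD52 (0.82 ± 0.10) and RAD59 (0.77 ± 0.12) rose most with MMS, and RAD55 (0.30 ± 0.09) and SGS1 (0.25 ± 0.07) rose less. RAD50 (0.06), RDH54 (0.07), MUS81 (0.21) and RAD54 (0.35) did not pass, nor did RAD57 (-0.14). The count was 4 of 9 higher, against 13.6% of all genes. The replicate number equals the dye orientation, so fitting it as a block removes dye and any other shared offset of arrays 1 and 2 together. With this block 6 were higher (23.8% of all genes) and 1 lower (27.5%). The added ones were RAD54 (adjusted p = 0.158, with the block 0.000941), MUS81 (0.059, with the block 0.0267) and, downward, RAD57 (0.139, with the block 0.0352). Without array 1 or without array 2 of this comparison 2 calls were left, RAD52 and RAD59.

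In wild-type cells released into S, RAD54 (0.78 ± 0.17), RDH54 (0.43 ± 0.11) and RAD52 (0.31 ± 0.10) rose with MMS while SGS1 fell by 0.49 ± 0.07. RAD50 (0.08), MUS81 (0.09), RAD55 (0.04) and RAD57 (0.04) did not pass, and RAD59 (0.24) passed only with the block (adjusted p = 0.158, with the block 0.0434). So 3 of 9 were higher, against 18.2% of all genes, and 1 lower, against 20.7%. Without array 1 the RAD52 call was lost, and without array 2 only SGS1 was left. In esa1-L254P cells in S, RAD54 (0.72 ± 0.17), RDH54 (0.71 ± 0.11), MUS81 (0.53 ± 0.07), RAD59 (0.52 ± 0.12) and RAD50 (0.41 ± 0.07) rose. The remaining genes were RAD52 (0.21, adjusted p = 0.128, with the block 0.0298), RAD55 (-0.04), RAD57 (-0.09) and SGS1 (-0.14). This was 5 of 9 higher, against 16.3% of all genes, and 4 without either array, where RAD59 was lost without array 1 and RAD54 without array 2.

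**Figure D1:**
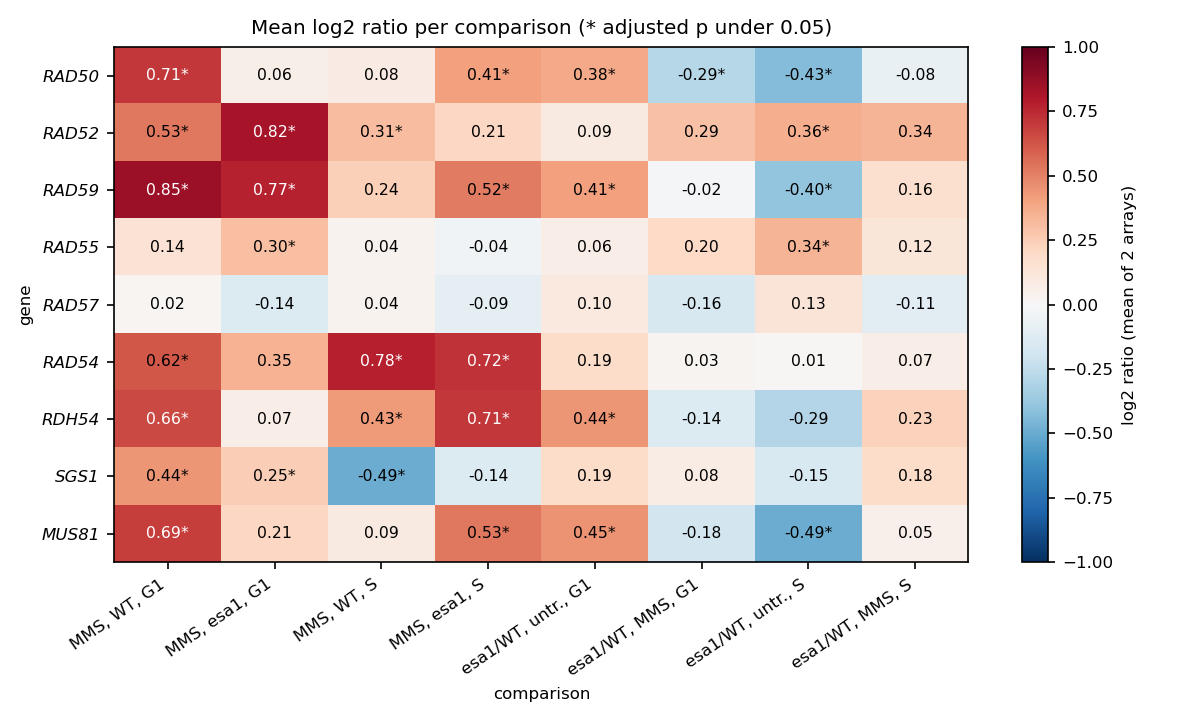
Mean log2 ratio over 2 arrays of each of the 9 genes (rows, grouped by role) in each comparison (columns, MMS over untreated on the left and esa1-L254P over wild type on the right), with calls at adjusted p under 0.05 marked by an asterisk. The wild-type G1 column holds 7 increases, the column of MMS-treated S strains holds no call, and the RAD57 row holds none.

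Cell cycle genes moved in the same S comparisons. Of the G1/S list (cyclins, replication and repair genes), 15 of 19 were higher with MMS in wild type (median 0.73) and 13 of 19 in esa1-L254P (median 0.60). Of all genes 18.2% and 16.3% were higher, wild type first. All 15 measured genes of the mitotic CLB2 cluster were lower in both strains, from -2.81 to -0.48 in wild type (20.7% of all genes lower) and from -2.66 to -0.58 in esa1-L254P (17%). In wild-type G1 the G1/S list had 4 higher and 4 lower of 19 (median -0.01) and the CLB2 cluster 4 higher and 1 lower of 15 (median 0.22), against 19.5% of all genes higher and 16.9% lower. In esa1-L254P G1 the G1/S list had 0 higher and 8 lower (median -0.31), and the CLB2 cluster 0 higher and 1 lower (median -0.11). Of all genes 13.6% were higher and 14.6% lower. With the block the G1/S list had 1 higher and 10 lower, and the CLB2 cluster 0 higher and 4 lower. The blocked shares of all genes were 23.8% higher and 27.5% lower. In these bulk samples, fewer cells at a given stage and less RNA per cell cannot be told apart, and the part of cell cycle position in the changes of the 9 genes was not tested. Of 12 damage-inducible genes 11 were higher in S in each strain, against 18.2% and 16.3% of all genes, wild type first. In G1 it was 5 in wild type, with RNR3 lower (-0.23), and 6 in esa1-L254P, against 19.5% and 13.6%.

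Between untreated strains, 4 of the 9 genes were higher in esa1-L254P in G1, against 13.7% of all genes: MUS81 (0.45 ± 0.07), RDH54 (0.44 ± 0.11), RAD59 (0.41 ± 0.12) and RAD50 (0.38 ± 0.07). All 9 means were above 0 there, against 2175 of all 4073 genes, and the lowest was 0.06 (RAD55). Passing only with the block were SGS1 (0.19, adjusted p = 0.0872, with the block 0.0368) and RAD54 (0.19, adjusted p = 0.499, with the block 0.0272). In S the difference ran the other way for 3 of those genes: MUS81 (-0.49 ± 0.07), RAD50 (-0.43 ± 0.07) and RAD59 (-0.40 ± 0.12) were lower in esa1-L254P. RDH54 stood at -0.29 (adjusted p = 0.0954, with the block 0.00724). RAD52 (0.36 ± 0.10) and RAD55 (0.34 ± 0.09) were higher. Thus 2 of 9 were higher (9.4% of all genes) and 3 lower (12.2% of all genes) in S.

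These strain calls depended on single arrays. In untreated G1, 0 were left without array 1 and 1, MUS81, without array 2. In untreated S, 2 were left without array 1 (RAD50 and MUS81) and 1, MUS81, without array 2. With the dye effect removed by the block, an alternative chosen after seeing the data, the same omissions left 5 and 3 calls in G1 and 4 each in S, where RAD59 was lost both times.

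With MMS in both strains the mean differences were small, and the 2 arrays repeated each other poorly. Before array 2 was turned they correlated over all genes at 0.21 in G1 and 0.61 in S. A change that repeats with the dyes exchanged gives a negative value, as with MMS in wild type (-0.70 in G1, -0.72 in S). In S 19.7% of all genes lay above 0 on both arrays and 16.9% below. Few calls here therefore do not show that the strains were alike. In G1 only RAD50 was called, lower in esa1-L254P (-0.29 ± 0.07, adjusted p = 0.0309), against 4.98% of all genes lower, and this call was lost without either array. RAD52 (0.29, adjusted p = 0.0896, with the block 0.0136), RAD55 (0.20, adjusted p = 0.231, with the block 0.0344) and RAD57 (-0.16, adjusted p = 0.154, with the block 0.0325) passed only with the block, which made 4 of 9 against 29.3% of all genes. In S limma called 0 of the 9, and 0.0737% of all genes in either direction. At an unadjusted p under 0.05 it was 2 of the 9, RAD52 (0.34) and SGS1 (0.18), and 6.11% of all genes, and with the block 1, RAD52 (adjusted p = 0.0438), against 2.38%.

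RAD50 encodes the ATPase of the Mre11-Rad50-Xrs2 complex, which binds and tethers broken ends. In G1 its MMS response was 0.75 and 0.66 in wild type and 0.07 and 0.04 in esa1-L254P. Untreated esa1-L254P cells already stood at 0.39 and 0.37 over untreated wild type, and with MMS they stood at -0.19 and -0.39. In S the picture was turned: 0.02 and 0.15 in wild type against 0.39 and 0.43 in esa1-L254P, from an untreated strain difference of -0.37 and -0.49. With MMS that difference was -0.11 and -0.04. The strain difference of the MMS response, tested as esa1-L254P minus wild type over all 8 arrays of a phase, was -0.66 ± 0.07 in G1 (adjusted p = 7.83e-05) and 0.35 ± 0.07 in S (adjusted p = 0.00692). Both calls held without any single array of their phase. The response was smaller in S than in G1 in wild type (difference -0.63 ± 0.10, adjusted p = 0.00109) and larger in esa1-L254P (0.36 ± 0.10, adjusted p = 0.0489, lost without any of the 4 arrays).

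**Figure D2:**
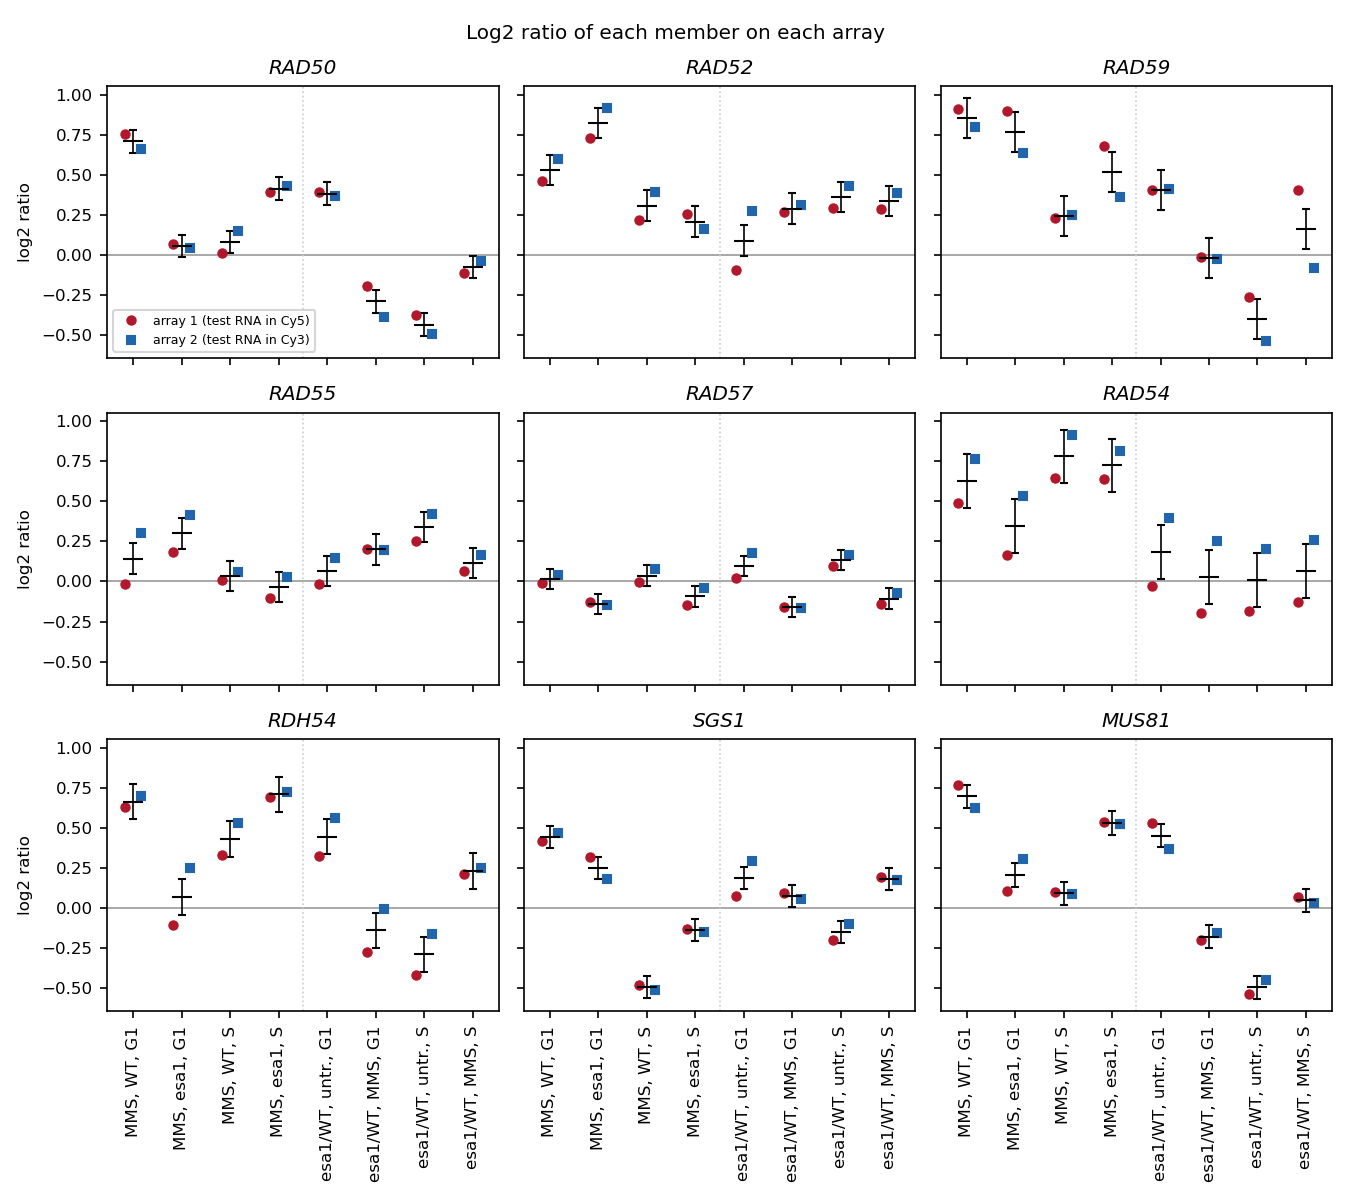
Log2 ratio of each gene on each of the 16 arrays (circles, array 1; squares, array 2), with the mean and its SE from limma as a bar, for the 4 MMS comparisons left of the dotted line and the 4 strain comparisons right of it. RAD50 and MUS81 run through the comparisons alike, and RAD57 stays between -0.16 and 0.18. The squares of RAD54 and of RDH54 lie above their circles in all 8 comparisons.

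MUS81, the catalytic subunit of a nuclease that cuts joined DNA molecules, followed the same course. Its G1 response was 0.77 and 0.62 in wild type against 0.11 and 0.30 in esa1-L254P, and its S response was 0.10 and 0.09 against 0.53 and 0.52. The untreated strain difference was 0.53 and 0.37 in G1 and -0.54 and -0.45 in S, and with MMS it was -0.20 and -0.16 in G1 and 0.07 and 0.03 in S. Each of these pairs of arrays lay on 1 side of 0. Among all genes this was common: 41.9% lay above 0 on both arrays and 37.8% below with MMS in wild-type G1. For the MMS-treated strains in S it was 19.7% and 16.9%. The strain difference of the response was -0.56 ± 0.07 in G1 (adjusted p = 0.00023) and 0.49 ± 0.07 in S (adjusted p = 0.00159), both held without any single array. Between phases the wild-type response fell by 0.60 ± 0.10 from G1 to S (adjusted p = 0.00163), and in esa1-L254P the difference was 0.32 (adjusted p = 0.0776, with the block 0.0293).

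SGS1 encodes the RecQ helicase that helps to trim ends and to dissolve joined molecules. It was the single member that rose with MMS in wild-type G1 (0.42 and 0.47) and fell in wild-type S (-0.48 and -0.51). The phase difference of -0.94 ± 0.10 (adjusted p = 0.000118) was the largest among the 9 in either strain. In esa1-L254P the values were 0.32 and 0.18 in G1 and -0.13 and -0.15 in S, a phase difference of -0.39 ± 0.10 (adjusted p = 0.0325, lost without any of the 4 arrays). The strain difference of the response passed in S (0.34 ± 0.07, adjusted p = 0.00678) and held without any single array; in G1 it was -0.15 (adjusted p = 0.107).

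RAD52 encodes a protein that anneals single strands, and RAD59 encodes its smaller relative, which aids annealing. RAD52 stood at 0.46 and 0.60 with MMS in wild-type G1 and higher, at 0.73 and 0.92, in esa1-L254P G1. The strain difference of that response was 0.25 ± 0.10 (adjusted p = 0.0641, with the block 0.0123). In S it was 0.22 and 0.39 in wild type and 0.25 and 0.16 in esa1-L254P. Its phase difference passed in esa1-L254P (-0.61 ± 0.14, adjusted p = 0.0181), but not without array 2 of the G1 comparison or without either array of the S comparison. RAD52 lay above 0 on 15 of 16 arrays, the exception being array 1 of the untreated G1 strain comparison (-0.09, against 0.27 on array 2).

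RAD59 rose to 0.91 and 0.80 with MMS in wild-type G1 and to 0.90 and 0.64 in esa1-L254P G1. In S it was 0.23 and 0.25 in wild type and 0.68 and 0.36 in esa1-L254P, a strain difference of the response of 0.42 ± 0.12 (adjusted p = 0.0376), which was lost in 5 of 8 omissions of a single array. In G1 that strain difference was -0.25 (adjusted p = 0.129, with the block 0.0337). Its wild-type response fell by 0.61 ± 0.18 from G1 to S (adjusted p = 0.0243, lost without any of the 4 arrays). Where the strains were compared with MMS in S, its arrays were far apart, at 0.40 and -0.08. RAD52 and RAD59 differed most in the untreated S strain comparison, where RAD52 minus RAD59 was 0.56 on array 1 and 0.96 on array 2.

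RAD54 and RDH54 encode related motor proteins of the Swi2/Snf2 family that slide on DNA and promote strand exchange, RDH54 also in meiosis. RAD54 had its highest values in S, at 0.65 and 0.91 with MMS in wild type and 0.64 and 0.81 in esa1-L254P, next to 0.49 and 0.76 and 0.16 and 0.53 in G1. It was above 0 on all 8 MMS arrays, and its strain differences straddled 0 in each of the 4 strain comparisons (-0.20 to 0.40 over 8 arrays). No strain difference of its response passed in S (-0.00, adjusted p = 0.999), and in G1 only with the block (-0.22, adjusted p = 0.327, with the block 0.00858). The phase difference in esa1-L254P was 0.38 (adjusted p = 0.415, with the block 0.00815). Of the 9, RAD54 carried the largest offset between arrays 1 and 2, which differ in both dye orientation and replicate. Array 2 exceeded array 1 in all 8 comparisons, by 0.17 to 0.45, and the limma term for the offset was -0.17 (adjusted p = 0.00013). RDH54 also had array 2 higher in all 8 comparisons (term -0.09, adjusted p = 0.00975). The term passed as well for RAD55 (-0.07, adjusted p = 0.0185), RAD59 (0.09, adjusted p = 0.0402) and RAD52 (-0.07, adjusted p = 0.0489). The offset of RAD54 cancels in the mean of both arrays and widens its SE to 0.17, the widest of the 9.

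RDH54 followed RAD50 and MUS81 more closely than RAD54. Its response in G1 was 0.63 and 0.70 in wild type against -0.11 and 0.25 in esa1-L254P, and in S 0.33 and 0.53 against 0.69 and 0.73. The strain difference of the response was -0.59 ± 0.11 in G1 (adjusted p = 0.00209), which held without any single array, and 0.40 ± 0.11 in S (adjusted p = 0.0278), which was lost in 6 of 8 omissions of a single array. The phase difference was 0.64 ± 0.16 in esa1-L254P (adjusted p = 0.0286, lost without array 1 of the G1 comparison and without either array of the S comparison). In wild type it was -0.23 (adjusted p = 0.304). Set beside RAD54, RDH54 lay close to it in wild-type G1 (RAD54 minus RDH54 -0.14 and 0.06) and in esa1-L254P S (-0.05 and 0.09). RAD54 exceeded it by 0.27 and 0.29 in esa1-L254P G1 and by 0.32 and 0.38 in wild-type S. Differences between genes were not tested.

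**Figure D3:**
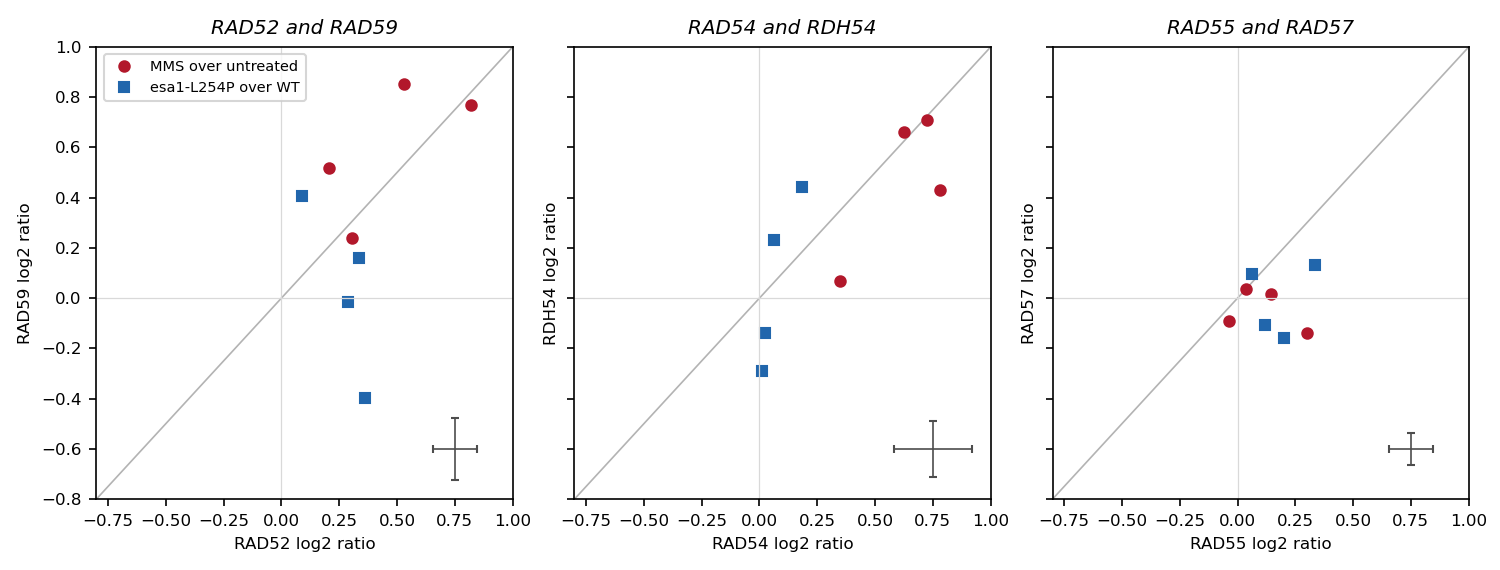
Mean log2 ratios of the related genes RAD52 and RAD59, RAD54 and RDH54, and RAD55 and RAD57 against each other over the 8 comparisons (circles, MMS over untreated; squares, esa1-L254P over wild type), with the line of equal values and, at the lower right, 1 SE of each gene. RAD52 and RAD59 lie furthest apart in the untreated S strain comparison (0.36 and -0.40), and all RAD57 values lie between -0.16 and 0.13.

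RAD55 and RAD57 encode proteins that form a pair and act early in recombination. RAD55 passed in 2 comparisons, with MMS in esa1-L254P G1 (0.18 and 0.42, adjusted p = 0.04) and higher in untreated esa1-L254P S (0.25 and 0.42, adjusted p = 0.0296), and each call was lost without either of its arrays. In wild type its response was -0.02 and 0.30 in G1 and 0.01 and 0.06 in S. Its phase difference in esa1-L254P was -0.34 (adjusted p = 0.157, with the block 0.0175). RAD57 passed in no direct comparison, with means from -0.16 to 0.13. The strain difference of its response was -0.21 ± 0.06 in G1 (adjusted p = 0.0257), lost in 7 of 8 omissions of a single array, and -0.18 in S (adjusted p = 0.0652, with the block 0.0121). The partners were 0.44 apart in esa1-L254P G1 with MMS (RAD55 0.30, RAD57 -0.14).

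Levels relative to untreated wild type of the same phase follow from a fit of the 4 conditions of a phase together (the loop fit). In G1, esa1-L254P with MMS and wild type with MMS stood at 1.01 and 0.94 for RAD59, 0.59 and 0.73 for MUS81, 0.52 and 0.66 for RDH54, and 0.43 and 0.71 for RAD50. Untreated esa1-L254P lay between these and the untreated wild type, at 0.32, 0.41, 0.45 and 0.38 in the same order. In S, untreated esa1-L254P was the lowest of the 4 conditions for these genes (-0.33, -0.47, -0.23 and -0.43). The 2 routes from untreated wild type to MMS-treated esa1-L254P, through MMS first or through the strain first, differed by -0.34 to 0.28 over the 9 genes in both phases. Limma called 0 of 4073 genes for that difference in either phase, with or without the block. At an unadjusted p under 0.05 it was 11 genes in each phase and 0 of the 9. Without the block the SE of this difference was wide (0.13 for RAD57 to 0.34 for RAD54). The lack of calls therefore does not show that the routes agree.

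**Figure D4:**
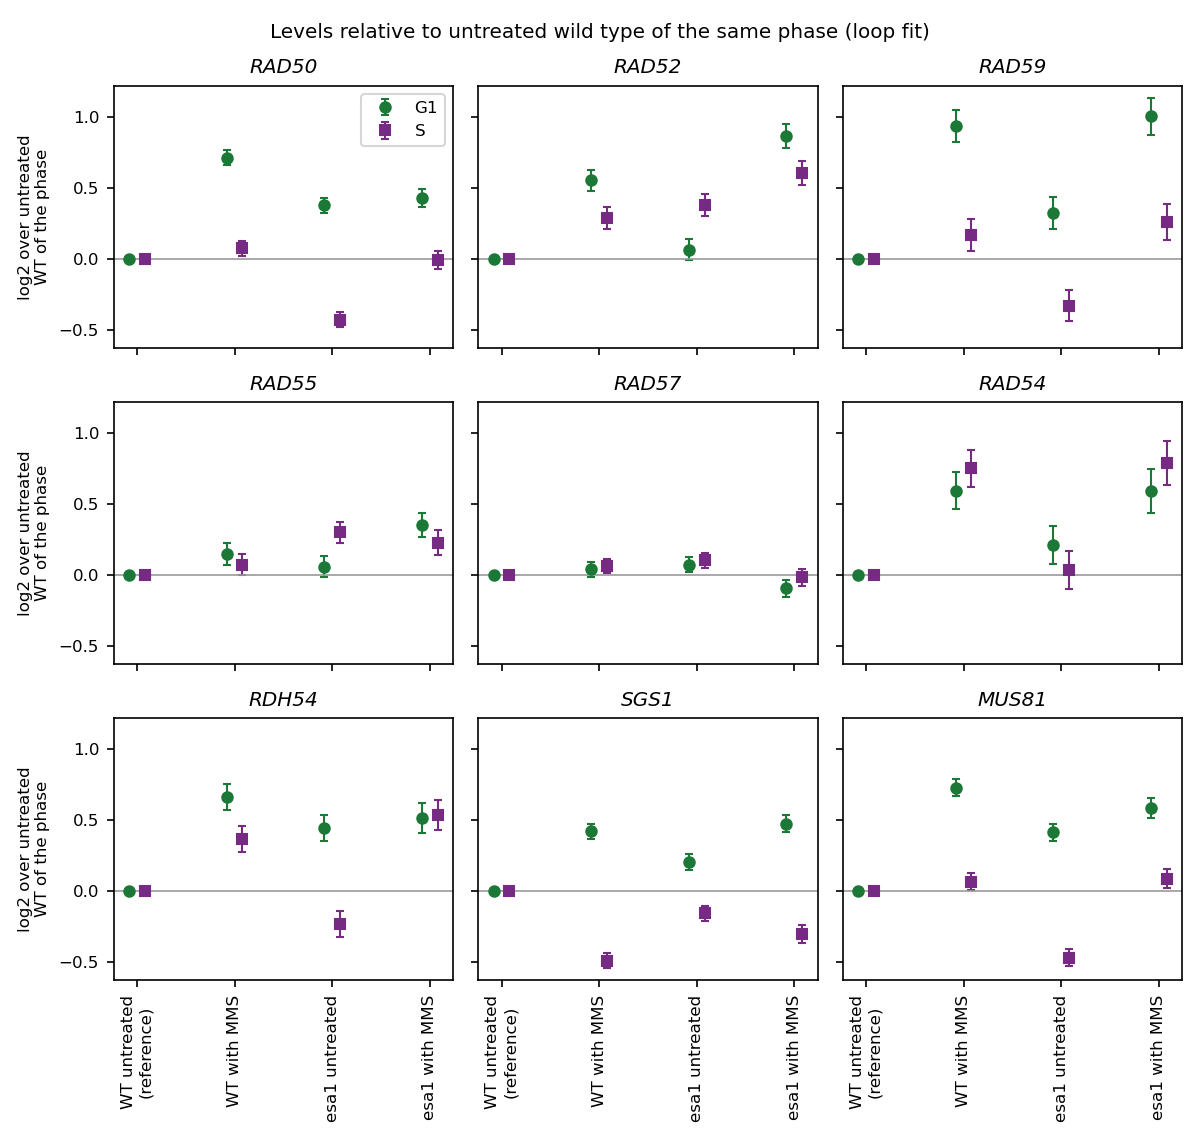
Level of each gene relative to untreated wild type of the same phase, on a log2 scale with 1 SE, from the loop fit (circles, G1; squares, S); the untreated wild type is set to 0 in each phase, so the phases are not compared in level. Untreated esa1-L254P stands above 0 in G1 and below 0 in S for RAD50, RAD59, RDH54, MUS81 and, by less, SGS1.

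The turn between phases was shared with much of the genome. In G1 the responses of the strains differed for 4 of the 9, all lower in esa1-L254P, against 21.6% of all genes lower; with the block it was 7, against 63% of all genes in either direction. In S it was 5, all higher, against 13.6% of all genes higher. RAD50, RDH54 and MUS81 were called in both phases, with opposite signs. Of 746 genes called in both phases, 725 (97.2%) had opposite signs, and 453 of them were lower in G1 and higher in S like these genes (11.1% of all genes). Across all 4073 genes, which are not independent replicates, the untreated strain difference in G1 correlated with that in S at r = -0.63, and the MMS-treated one at 0.22. The phases share no arrays. All directions given here rest on the labels of the samples as deposited; an exchange of the untreated samples of the strains within a phase would change the strain differences and MMS responses reported for that phase, and was not tested. In the phase test, 4 of 9 were lower in S in wild type (18.2% of all genes). In esa1-L254P 2 were higher (5.45%) and 2 lower (4.81%), and with the block 7 were called (27.7% in either direction). For esa1-L254P, leaving out single arrays left 1 call without either G1 array and 0 without either S array.

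**Figure D5:**
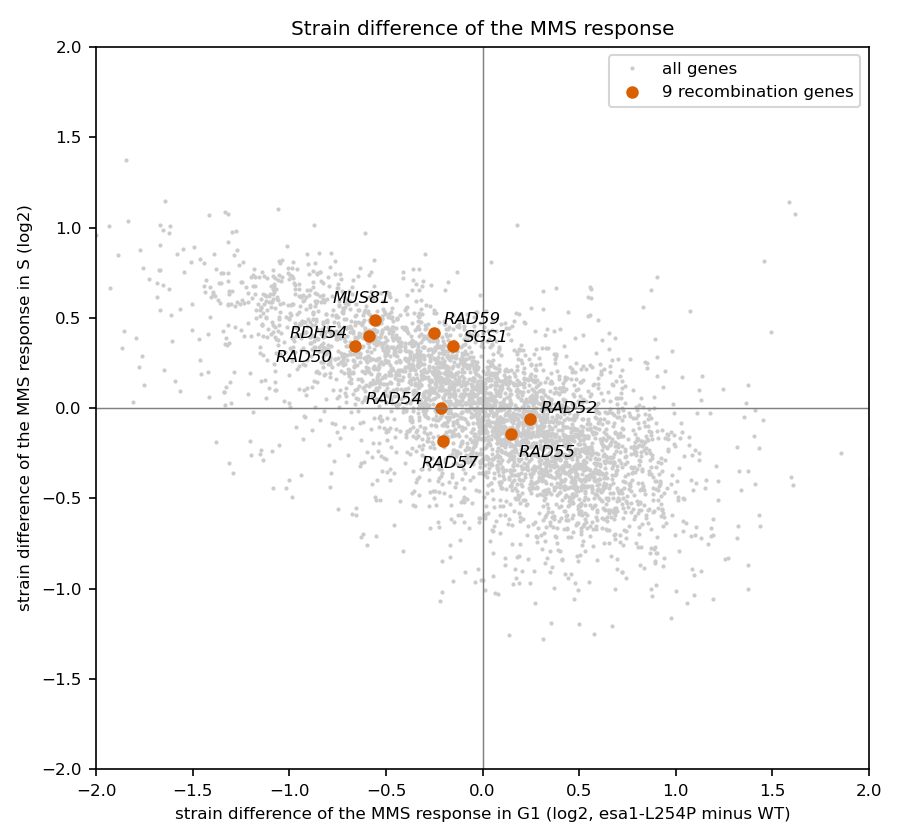
Strain difference of the MMS response (log2, esa1-L254P minus wild type) in G1 on the horizontal axis and in S on the vertical axis, for all 4073 genes (grey; 8 lie beyond the axes at 2) and the 9 recombination genes (orange). RAD50, RDH54 and MUS81 lie at upper left among many other genes, and RAD54, RAD55 and RAD57 lie nearer the origin.

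Over the 8 comparison means, the 6 pairs among RAD50, MUS81, RDH54 and RAD59 correlated at 0.72 to 0.98, whereas all 36 pairs ranged from -0.83 (RAD55 and RDH54) to 0.98 (RAD50 and MUS81) with a median of 0.09. The 8 means share RNA conditions within a phase, so these are descriptions. Such courses were common: of 2286 other genes whose means varied by an SD of at least 0.3, 8.84% correlated with RAD50 and 8.4% with MUS81 at over 0.9. The closest to RAD50 were SEC28, SEC72 and VTI1 (0.99 each), and to MUS81 YAP6, PCL6 and CBT1 (0.99 each). Next to RDH54 were YPT7, LOT6 and PEX25 (0.99 each). RAD59 ran closest to GYP5 (0.99), to RPT4 (0.98), which encodes a proteasome ATPase, and to RPN4 (0.96), which encodes the activator of proteasome genes. RAD54 ran with PEP8 (0.99), RBK1 (0.98) and ECO1 (0.98), SGS1 with TFC1 (0.99), SRC1 (0.97) and SPT6 (0.97), and RAD55 with MOB1 (0.95), HOS3 (0.94) and RTG1 (0.94). RAD52 had no gene over 0.9, its closest being VPS54 (0.89), TKL2 (0.87) and MF(ALPHA)2 (0.84). RAD57, whose own means varied little, had SAS2 (0.74), RSR1 (0.71) and PCL1 (0.70). The SD of the means was 0.11 for RAD57, 0.13 for RAD55, 0.22 for RAD52 and 0.29 for SGS1. All of these lay under the 0.3 asked of the other genes.

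The pathway list held 22 other measured recombination genes. With MMS in wild-type G1, 5 of 22 were higher, a share near the 19.5% of all genes, and 11 with the block (29% of all genes). Among the 5 were MMS4 (0.75), the partner of Mus81, the nuclease scaffold gene SLX4 (0.74) and RFA1 (0.54), which encodes the large subunit of the single-strand binding protein RPA. The Shu complex genes CSM2 (-0.52) and SHU1 (-0.33) were lower, against 16.9% of all genes. In esa1-L254P G1 2 were higher (13.6% of all genes), RFA1 (0.86) and TOP3 (0.52), the topoisomerase partner of Sgs1. The 2 lower ones (14.6% of all genes) were SHU1 (-0.36) and PSY3 (-0.34), another Shu gene. With the block it was 7 higher and 4 lower (23.8% and 27.5% of all genes). In S, RFA2 (1.45 in wild type, 1.67 in esa1-L254P), RFA1 (1.29 and 0.89) and TOP3 (0.74 and 0.50) rose in both strains. They were among 4 of 22 higher in each strain, near the shares of all genes (18.2% and 16.3%, wild type first). With the block 9 were higher in wild type (26.6% of all genes) and 11 in esa1-L254P (25.3%). In each strain 1 of 22 was lower in S, against 20.7% and 17% of all genes, wild type first. With the block it was 2 in wild type (32.3% of all genes) and 4 in esa1-L254P (30.3%). The helicase gene MPH1 fell in wild-type S (-0.44) and rose in wild-type G1 (0.49). SHU1 rose in wild-type S (0.30) and fell in esa1-L254P S (-0.29). The medians of the 22 were 0.18 and 0.04 in G1 and 0.13 and 0.15 in S, wild type first.

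Between untreated strains in G1, 3 of the 22 were higher in esa1-L254P, a share near the 13.7% of all genes. They were SLX4 (0.54), MPH1 (0.35) and PSY3 (0.25). CSM2 (-0.57) was the 1 lower gene, against 8.27% of all genes. With the block 7 were higher (24.7% of all genes). In untreated S, SHU1 (0.55), TOP3 (0.42) and CSM2 (0.32) were higher, 3 of 22 against 9.4% of all genes. MPH1 (-0.39) and PSY3 (-0.24) were lower, 2 of 22 against 12.2%. With the block 5 were higher (18.3% of all genes). With MMS, PSY3 (-0.37) was the 1 gene of the 22 called in G1, against 4.98% of all genes lower. With the block 5 were called (29.3% of all genes). In S limma called 0 (0.0737% of all genes), and 1 with the block (2.38%). Of 6 end-joining genes, which join ends without a template, 3 were higher in untreated esa1-L254P in G1 (13.7% of all genes) and 4 lower in S (12.2%). With the block it was 6 in G1 (24.7%) and 5 in S (21.5%). Among them YKU70, a subunit of the Ku end-binding protein chosen here after its values were seen, stood at 0.44 in G1 and -0.78 in S.

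Of the 9 genes, 4 (RAD55, RAD57, RAD59 and MUS81) lie on chromosome IV. The median of the 547 measured genes of that chromosome was 0.10 in the untreated G1 strain comparison, the highest of 16 chromosomes, and -0.04 in S, the lowest of 16. It was also the highest of 16 with MMS in wild-type G1 (0.11) and the lowest of 16 between MMS-treated G1 strains (-0.01). The chromosome medians of all 8 comparisons lay between -0.14 and 0.17.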

How the data were processed

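The authors deposited log2 ratios of the 2 channels of each array; R 3.1.1 and limma 3.0 are named per the submitters' processing notes, while for the log base (taken as 2), the background correction and the normalization within arrays the method is not given in the sources used here. The members and gene lists were chosen with earlier results of these data known.

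Rows of the value table did not follow the probe numbers: under that order a gene's own spots correlated at -0.04 to 0.04. Of 15552 orderings compared by how well spots of 2035 genes matched, the chosen one scored 1.08 and the next 0.033. In the other 2035 genes spots of a gene then correlated at 0.70 to 0.95. Every gene name rests on this order. Array 2 of each comparison was multiplied by -1 and spots were averaged. Of 4073 symbols 125 were updated through the RefSeq R64 table.

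R 4.3.3 with limma 3.58.1 fitted all 16 arrays with 1 coefficient per comparison (8 residual degrees of freedom; median SE 0.147). The number of arrays limits the precision. As a check of pairing, residuals of same-numbered arrays were correlated over 28 pairs of comparisons (0.62 to 0.89), so the number, equal to the dye orientation, was fitted as a block. The block left fold changes unchanged (median SE 0.0925), and blocked values are given where they change the call of a member or move a list's count by over 1.5 times.

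All 9 genes are reported in every comparison. Of other recombination genes up to 3 per direction are named by size of change, and for each member the 3 genes most like it.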

Additional observations from a re-analysis of the deposited data

Results flagged for a closer look

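The results below stand out because the same treatment gave different changes in 2 groups, by limma's test of the difference itself over all genes. Differences are in log2 units.

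Between strains (esa1-L254P minus wild type), the MMS response in G1 was lower for RAD50 (-0.66), RDH54 (-0.59), MUS81 (-0.56) and RAD57 (-0.21). In S it was higher for MUS81 (0.49), RAD59 (0.42), RDH54 (0.40), RAD50 (0.35) and SGS1 (0.34).

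Between phases (S minus G1), the MMS response of wild type was lower for SGS1 (-0.94), RAD50 (-0.63), RAD59 (-0.61) and MUS81 (-0.60). In esa1-L254P it was lower for RAD52 (-0.61) and SGS1 (-0.39), and higher for RDH54 (0.64) and RAD50 (0.36). Groups held 2 arrays each, too few to look for single arrays that stand apart.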

How the results depend on the processing

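Over 9 alternatives and 108 gene results, 881 of 972 kept their direction and side of the threshold, 48 gained a call, 43 lost one and none turned. The counts below are of members called. The replicate block (pairing by number) gave 7 for the response to MMS in esa1-L254P G1, 4 and 1 for the treated strains in G1 and S, 7 for the strain difference of the G1 response and 7 for the phase difference in esa1-L254P; beyond the genes whose blocked values the report gives, it changed no other call. A loop fit gave 7 in esa1-L254P G1 and 2 for the treated strains in G1. Averaging the dye-swap arrays first gave 3 for the latter and 7 for the phase difference in esa1-L254P. Scaling arrays to 1 spread gave 2 in wild-type S, 1 for the treated S strains and 1 for that phase difference. The first spot alone gave 0 for treated G1 strains, 2 in wild-type S, 3 for untreated S strains, 2 for the strain difference in S and 1 for the phase difference in esa1-L254P. The second spot alone gave 2 for untreated G1 strains, 0 for treated G1 strains, 3 for untreated S strains, 3 for the strain difference in S and 1 for the phase difference in esa1-L254P. Centring, a robust prior and leaving out genes with discordant spots moved no count by over 1.5 times. The cause was not tested.

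Leaving out 1 array gave 2 in esa1-L254P G1, 0 to 1 for untreated G1 strains, 0 for treated G1 strains, 1 to 3 in wild-type S, 1 to 2 for untreated S strains, 3 to 4 for the strain difference in S and 0 to 1 for the phase difference in esa1-L254P. With the block, an alternative chosen after seeing the data, it gave 6 to 8 for the strain difference in G1, 4 to 5 in esa1-L254P G1 and 3 to 5 for the phase difference in esa1-L254P. A lone array keeps its dye effect where no block is fitted, and is assumed to vary like the other comparisons. A search for promoter motifs was not run.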
